A study of Mus musculus with 20 samples.

Results

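The comparison described here sets pyramidal cells of the mouse subiculum that project to PFC against those that project to RSC, names customarily read as prefrontal cortex and retrosplenial cortex. Members were taken from the labels alone: 3 bulk RNA-seq libraries labelled PFC and 3 labelled RSC, which is 6 of the 12 bulk libraries and 6 of the 20 samples of the series. The other 6 bulk libraries are 3 each of subicular pyramidal cells labelled by projection to NA and to VHN, and the remaining 8 samples are unlabelled single cells. Fluorescent neurons were picked by hand from microdissected slices, so all 6 libraries share the tissue, the cell class and the purification. The labels give no strain, age, sex, labelling agent or number of cells per library, and neither group carries a stated genetic alteration or treatment. The 3 libraries of a group are described as biological replicates, but nothing says that they came from separate animals, so the p-values measure the spread between these libraries.

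Pyramidal cells of the subiculum carry much of what the hippocampus sends to the rest of the brain, through glutamatergic axons that reach cortical, striatal, thalamic and hypothalamic targets. Cells with different targets tend to lie at different positions along the axes of the subiculum. Such projection classes can differ in the receptors, channels and adhesion proteins that shape how a neuron is driven, how it fires and whom it contacts.

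Values are CPM, fragment counts relative to the scaled library size, which compare 1 gene between libraries and not genes of different length with each other. Where 3 values are set against 3, the PFC libraries come first, in the order of replicates 1, 2 and 3. PFC libraries held 10777273 to 14019666 fragments and RSC libraries 17399784 to 20904126. The pyramidal cell label was checked with the vesicular glutamate transporter Slc17a7, at 571 to 1024 CPM, and the kinase Camk2a, at 1020 to 2011 CPM across the 6 libraries. Astrocyte Gfap and Aldh1l1, oligodendrocyte Mog, microglial C1qa and endothelial Cldn5 were at 0 in all 6, but other glial genes were not. Of 10 astrocyte, 9 oligodendrocyte and 10 microglial genes, 4 in each list were at 0 in all 6 libraries. The summed levels in PFC and RSC libraries were 310 to 450 CPM and 150 to 398 CPM for astrocyte genes, 45.7 to 52.4 CPM and 42.7 to 54.3 CPM for oligodendrocyte genes, and 13.2 to 31.8 CPM and 5.88 to 24.04 CPM for microglial genes. Most of the astrocyte sum was Slc1a2 alone, at 339, 279 and 389 CPM in PFC and 387, 246 and 130 CPM in RSC libraries. Transcripts of inhibitory neurons were present in some RSC libraries: Gad2, which makes GABA, stood at 0 in RSC replicate 1, 43.3 CPM in replicate 2 and 177 CPM in replicate 3 against 0.416 to 0.52 CPM in the PFC libraries, and Gad1 was at 0, 7.22 and 37.4 CPM against 0 in every PFC library. Of the 16 interneuron genes examined, Vip and Lhx6 were at 0 in all 6 libraries, and the summed level of the list was 638 to 1022 CPM in PFC and 572 to 938 CPM in RSC libraries. Cck alone held 672, 1008 and 625 CPM of this sum in PFC and 471, 341 and 397 CPM in RSC libraries. The sum is therefore no measure of the Gad1 and Gad2 difference. Lamp5 and Pvalb of the same list were higher in every RSC library, replicate 1 included. Lamp5 was at 31.9, 6.03 and 5.63 CPM in PFC and 125, 139 and 224 CPM in RSC libraries. Of 11 interneuron genes tested, these 2 (18.2%) passed the threshold used below, beside 9.76% of all genes. The median log2 fold change of the 11 was -3.49. The mural cell gene Rgs5 was instead higher in PFC libraries, at 54.5 to 91.8 CPM against 5.65 to 10.6 CPM in RSC libraries. It was 1 of 10 endothelial and mural genes, and the others did not follow it. Vtn, Cdh5 and Cldn5 were at 0 in all 6 libraries, and Flt1 was at 3.12 CPM in PFC replicate 2 alone. Pecam1, Tek, Acta2, Kdr and Pdgfrb were at 0.387 CPM or less. The part of such transcripts in the differences below was not tested. In bulk libraries, fewer cells that express a gene and less RNA per cell cannot be told apart.

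Of 13916 genes tested, 1358 (9.76%) differed between PFC and RSC cells at an adjusted p under 0.05, by edgeR's quasi-likelihood test with Benjamini-Hochberg adjustment in 1 fit of the 12 bulk libraries. The split was even, with 679 genes (4.88%) higher in PFC and 679 (4.88%) higher in RSC cells, and for 1106 (7.95%) the size was also 1 or more in log2 units. Changes were larger among the genes higher in PFC cells, whose median absolute log2 fold change was 2.03 against 1.44 among those higher in RSC cells. All 3 libraries of one population lay above all 3 of the other for 4199 genes (30.2%), and 1339 of the 1358 called genes were among them. Pearson correlations of log levels were 0.816 to 0.864 within PFC, 0.871 to 0.888 within RSC and 0.777 to 0.796 between the populations. The number of calls depended on each RSC library: without RSC replicate 1, 2 or 3 it was 786, 744 or 875, and RSC replicate 1 is the library without Gad2. A further fit kept RSC replicate 1 as the sole RSC library and left out the VHN library that also held Gad2. With only 1 RSC library it can call fewer differences, and 1356 of the 1358 called genes kept their sign. That fit shares RSC replicate 1 and the PFC libraries with the main fit.

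**Figure D1:**
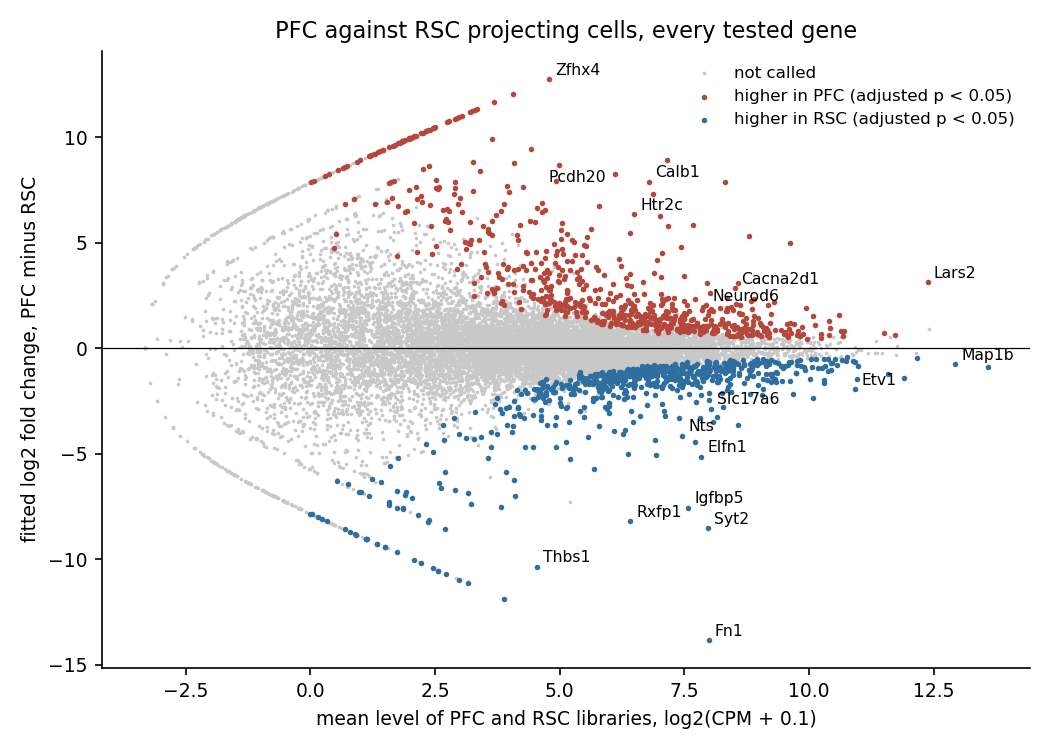
Fitted log2 fold change, PFC minus RSC (vertical axis), against the mean level of the PFC and RSC libraries as log2(CPM + 0.1) (horizontal axis) for the 13916 tested genes, one point a gene. Red marks the 679 genes higher in PFC and blue the 679 higher in RSC at an adjusted p under 0.05; the outer arcs are genes at 0 in every library of one population, whose fitted values are no measure of size.

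Some genes were close to on in one population and off in the other. In all, 16 genes stood at 10 CPM or more in every PFC library and under 1 CPM in every RSC library, and 9 showed the reverse, all of them among the called genes. The protocadherin Pcdh20, a homophilic adhesion protein, was at 130.3, 147 and 134 CPM in the PFC libraries and at 0.519, 0.276 and 0.531 CPM in the RSC libraries. With it went the related Pcdh8 and Cdh4, the orphan receptor Gpr12, the adrenergic receptor Adra2a, the growth factor Fgf10, the kainate receptor subunit Grik4, lipoprotein lipase (Lpl), the cholesterol exporter Abca1 and the sodium-proton exchanger Slc9a4.

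Fibronectin (Fn1), a matrix glycoprotein, led the reverse set at 0.0867, 0 and 0 CPM in PFC and 567, 572 and 381 CPM in RSC libraries. That is 1 fragment against 28086, a ratio of 18320 with a 95% counting interval of 3288 to 723600. Thrombospondin 1 (Thbs1), another secreted matrix protein, was at 0.0867, 0 and 0 CPM against 31.8, 42.7 and 63.9 CPM. The rule that named both genes required groups that do not overlap, and the single PFC fragment of each came from PFC replicate 1. Others of the 9 were the scaffold Whrn, the prostaglandin receptor Ptger3, the morphogen regulator Bmper, the scavenger receptor Scara3 and the vesicle protein Sv2c. With stricter limits of under 0.5 and at least 20 CPM, 2 genes remained in PFC (Slc9a4 and Mapk4) and 4 in RSC, among them Fn1, Thbs1 and Scara3.

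The 12 genes with the largest fitted changes on the PFC side each had 0 fragments in every RSC library. The zinc-finger homeobox factor Zfhx4 was at 6.41, 76.3 and 81.3 CPM in PFC libraries, with a mean at least 1023-fold above the level of 3 fragments over the RSC group. Such bounds hold for the mean and not for each library. The enkephalin precursor Penk was at 0.78, 32.2 and 25.2 CPM, with a mean at least 363-fold above the same floor, to which replicate 1 lies far closer. The anchor-synthesis enzyme Piga was even across PFC libraries, at 18.3, 16.1 and 14.3 CPM, with a mean at least 303-fold above the floor. St18, Tmcc3, Htr5b, Plekha2, Lrp4, Popdc3, Tox3, Rasgrp2 and C1qtnf7 completed the set, with bounds on the PFC mean from 209-fold to 618-fold. Their PFC levels were uneven, as in St18 at 0.26, 9.91 and 88.9 CPM, where PFC replicate 3 is far above replicate 1. Penk, St18, Htr5b and Zfhx4 were all low in PFC replicate 1, an observation made after the values were seen. Not all of the 12 were so. Popdc3, at 29.1, 14 and 0.938 CPM, C1qtnf7, at 4.68, 28.7 and 0.188 CPM, and Piga were lowest in PFC replicate 3. The calls of Plekha2 and Tox3 were lost without any one RSC library, and those of Lrp4, Rasgrp2 and C1qtnf7 also without PFC libraries (replicates 2 or 3, replicate 3, and replicate 2), with adjusted p up to 0.0636, 0.0592, 0.0904, 0.0751 and 0.136. On FPKM with limma, St18, Plekha2, Lrp4, Rasgrp2 and C1qtnf7 were not called, with adjusted p from 0.0573 to 0.282.

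On the RSC side Mctp2, Gm12198, Lipm, Tnnt2 and Skint1 had 0 fragments in every PFC library, with bounds on the RSC mean from 131-fold to 217-fold. Other RSC genes were abundant as well as one-sided. Synaptotagmin 2 (Syt2), a fast calcium sensor of transmitter release, was at 3.64, 0.346 and 0.0938 CPM in PFC and 691, 496 and 318 CPM in RSC libraries. Its log2 fold change was -8.54 ± 0.83 (SE; adjusted p = 1.79e-05), and -11.01 without PFC replicate 1, the PFC library with most Syt2. Rxfp1, the receptor of relaxin, was at 1.13, 0.554 and 0 CPM against 187, 138 and 182 CPM, and Igfbp5, an insulin-like growth factor binding protein, at 4.16, 1.8 and 0 CPM against 287, 249 and 595 CPM. The rule that named Syt2, Rxfp1 and Igfbp5 required groups that do not overlap.

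In the lists described from here on, 23.1% to 63.6% of tested members were called, beside 9.76% of all genes tested. The aminoacyl-tRNA synthetases, at 5.41%, were the exception. A share above that of all genes is thus particular to none of these lists. Peptide signals separated the populations in both directions. Of 25 tested neuropeptides and secreted signals, 5 were higher in PFC cells (Penk, Bdnf, Fgf13, Wnt4 and Nrg3) and 4 in RSC cells (Nts, Dkk3, Scg2 and Chga), with a median log2 fold change of -0.68 against 0.03 over all tested genes. Fgf13 is counted in this list although it is intracellular, as described with the sodium channels below. The RSC count was 2 without PFC replicate 2 or RSC replicate 2. Neurotensin (Nts), a peptide transmitter, was at 10.9, 14 and 31.6 CPM in PFC and 402, 314 and 281 CPM in RSC libraries. Every RSC library exceeds every PFC library by a wide margin, and the log2 fold change was -4.14 ± 0.39 (SE; adjusted p = 1.7e-05), or -4.74 without PFC replicate 3. Bdnf, a neurotrophin, was at 34.1, 65.8 and 122 CPM against 1.33, 4.74 and 0.387 CPM, a log2 fold change of 5.10 ± 1.05 (SE; adjusted p = 0.00511), or 6.43 without RSC replicate 2. Chromogranin A (Chga) and secretogranin 2 (Scg2), proteins of dense-core vesicles, were with Nts on the RSC side.

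Among 32 tested receptors for monoamines, acetylcholine, adenosine and cannabinoids, 8 were higher in PFC (Htr2c, Htr2a, Htr5b, Chrm1, Chrna7, Adra1a, Adra2a and Drd5) and 3 in RSC cells (Adra1b, Chrna4 and Htr1f). The median of the list was 0.36, and the count on the PFC side fell to 4 without RSC replicate 2 and to 5 without PFC replicate 1 or RSC replicate 1; on the RSC side 1 was called without RSC replicate 1. Htr2c, the serotonin 2C receptor, was at 142, 177 and 216 CPM in PFC and 2.37, 1.71 and 2.37 CPM in RSC libraries. No RSC library came near a PFC library, and the log2 fold change was 6.37 ± 0.65 (SE; adjusted p = 1.79e-05). The muscarinic receptor Chrm1 was detected in all 6 libraries, at 220.3, 327 and 294 CPM against 137, 131 and 139.6 CPM, a log2 fold change of 1.05 ± 0.19 (SE; adjusted p = 0.00244). Among 25 peptide and orphan receptors, Gpr12, Npy1r, Gpr22 and Adcyap1r1 were higher in PFC cells, and Gpr101 and Sstr4 in RSC cells; the PFC count was 2 without replicate 1 or 2 of either population. The orphan receptor Gpr101 was at 1.39, 15 and 39 CPM against 472, 371 and 353 CPM, with the 3 PFC libraries far apart from each other but all below RSC. The call of Sstr4, a somatostatin receptor, was lost without RSC replicate 1 (adjusted p = 0.0612).

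The sequence before the start sites of 3 of these genes, 1 high in RSC cells (Nts) and 2 high in PFC cells (Htr2c and Pcdh20), is shown because their levels are nearly one-sided. Each is the 250 bases upstream of the start in RefSeq on GRCm38.p6, read 5′ to 3′ on the gene's strand, at chr10:102490419-102490668 (strand -), chrX:146962263-146962512 (strand +) and chr14:88471397-88471646 (strand -). Capitals mark matches on either strand to CAGNTG, an E-box of the kind bound by neuronal helix-loop-helix factors, to TGANTCA, an AP-1 site, and to TGACGTCA, a full cAMP response element.
Nts: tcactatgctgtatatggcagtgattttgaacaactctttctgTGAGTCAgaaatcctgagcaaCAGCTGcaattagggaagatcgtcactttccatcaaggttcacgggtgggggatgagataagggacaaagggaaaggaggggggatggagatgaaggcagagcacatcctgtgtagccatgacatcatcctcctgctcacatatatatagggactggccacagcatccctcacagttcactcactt
Htr2c: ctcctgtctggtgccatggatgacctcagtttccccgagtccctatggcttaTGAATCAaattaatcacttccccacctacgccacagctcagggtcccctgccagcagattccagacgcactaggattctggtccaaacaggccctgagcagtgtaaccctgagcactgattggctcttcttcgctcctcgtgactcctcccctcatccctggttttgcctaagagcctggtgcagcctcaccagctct
Pcdh20: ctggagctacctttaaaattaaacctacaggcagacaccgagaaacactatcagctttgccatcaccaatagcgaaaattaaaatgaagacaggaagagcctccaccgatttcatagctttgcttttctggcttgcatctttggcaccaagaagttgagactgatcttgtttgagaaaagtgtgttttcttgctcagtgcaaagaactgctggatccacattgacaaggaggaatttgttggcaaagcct
The Nts window holds 1 E-box and 1 AP-1 match, the Htr2c window 1 AP-1 match and the Pcdh20 window none of the 3, which says nothing about which factors act there. An AP-1 match was present in 3.81% of the 10124 tested genes with a window, in 3.87% of the 465 higher in PFC and in 3.80% of the 527 higher in RSC cells. E-box shares were 37.4%, 41.1% and 40.0%. The full cAMP response element was in 2.79% of tested genes, 1.29% (6) of those higher in PFC and 4.55% (24) of those higher in RSC cells. The ETS site CCGGAAGT was in 5.95%, 2.58% and 5.69%, and TATAAA in 5.96%, 5.59% and 6.64%. Over all 27025 RefSeq windows the shares were 6.87% for AP-1, 44.5% for the E-box, 1.62% for the cAMP response element, 2.93% for the ETS site and 13.0% for TATAAA. These motifs were chosen with the expression values known, they do not overlap one another in the windows printed, and the shares were not tested.

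**Figure D2:**
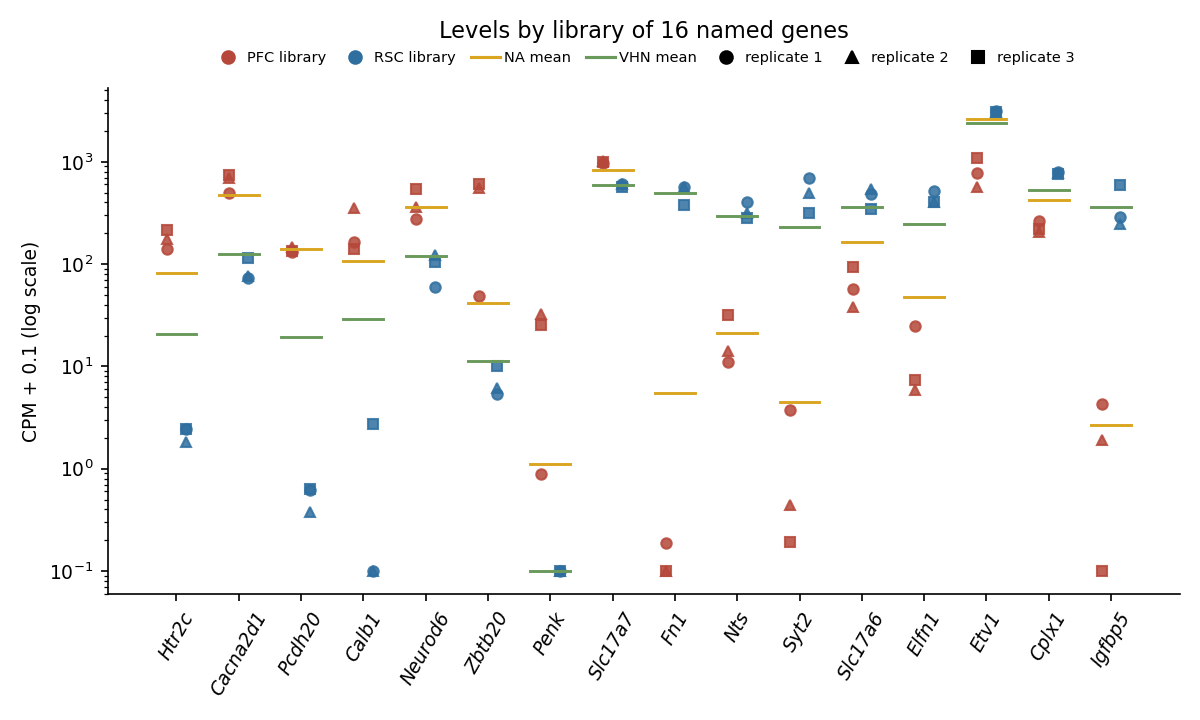
CPM + 0.1 on a log axis for 16 named genes, with 1 marker per library (circle, triangle and square for replicates 1, 2 and 3; red for PFC, blue for RSC) and lines for the NA and VHN means of 3 libraries. PFC and RSC markers do not overlap for any of the 16, which was required of Penk, Fn1, Syt2 and Igfbp5 when they were named. The others were picked as called genes, of which 1339 of 1358 do not overlap, beside 30.2% of all genes tested. For Etv1 the NA and VHN lines both lie near the RSC libraries.

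The vesicular glutamate transporters moved in opposite directions. Slc17a6, which dominates in thalamus and other subcortical sites, was at 57.3, 37.9 and 93.5 CPM in PFC and 486, 537 and 349 CPM in RSC libraries, a log2 fold change of -2.86 ± 0.29 (SE; adjusted p = 1.84e-05). Slc17a7, the usual cortical form, was at 965, 1024 and 1001 CPM against 609, 609 and 571 CPM, a smaller difference of 0.74 ± 0.15 (SE; adjusted p = 0.00394). Neither gene overlaps between the groups. Slc30a3, which loads zinc into glutamate vesicles, was called higher in PFC cells at 7.28, 71.9 and 58 CPM against 0.0577, 0.11 and 1.16 CPM, but the call was lost without PFC replicate 2 or 3 or RSC replicate 1 or 2 (adjusted p up to 0.0937).

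Of 30 glutamate receptor genes 7 were called, 5 of them higher in PFC cells (Grin2b, Grik3, Grik4, Grid1 and Grm3) and 2 in RSC cells (Gria1 and Cacng3), with a list median of 0.43. The PFC count was 2 without RSC replicate 2, 3 without RSC replicate 1 or 3, and 8 without NA replicate 2; the RSC count was 0 without PFC replicate 1 or RSC replicate 2 or 3, and 1 without any one of 6 other libraries. The NMDA receptor subunit Grin2b was at 1079.5, 1197 and 1102 CPM against 657, 585 and 664 CPM, a log2 fold change of 0.83 ± 0.16 (SE; adjusted p = 0.00381). Grik4 was at 10.8, 23.8 and 13.7 CPM against 0.115, 0.221 and 0.193 CPM. Both genes are separated without overlap, one by less than 1 log2 unit and one from near absence. The call of Cacng3 was lost without PFC replicate 1 or RSC replicate 2 or 3 (adjusted p up to 0.0725), and that of Grm3 without RSC replicate 1 or 2 (up to 0.0763).

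Of 41 voltage-gated potassium channel genes, 7 were higher in each, with a median of 0.48; on the PFC side 3 were called without RSC replicate 2 and 4 without RSC replicate 1 or 3 or PFC replicate 2. The A-type subunits Kcnd2 and Kcnd3, which open below threshold and delay firing, were higher in PFC cells together with their partner Kcnip2. Kcnd3 was at 140.4, 229 and 71.3 CPM against 7.73, 4.96 and 30.9 CPM, a log2 fold change of 3.33 ± 0.64 (SE; adjusted p = 0.00339), or 4.53 without RSC replicate 3. Kcnd2 was at 164, 231 and 347 CPM against 87.9, 108 and 107 CPM, a log2 fold change of 1.29 ± 0.26 (SE; adjusted p = 0.00453). Higher in RSC cells were the auxiliary subunit Kcnab3, at 4.16, 7.34 and 22.3 CPM against 204, 237 and 247 CPM, and the silent subunit Kcnf1, at 43.2, 47.8 and 71.5 CPM against 256, 183 and 126 CPM, with others such as Kcna2, Kcna5, Kcnh7 and Kcnip3. For these 4 genes, each population's libraries lie on their own side.

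Of 20 other potassium channel genes, Kcnt2, Kcnk1 and Kcnk2 were higher in PFC cells and the calcium-activated Kcnn1 and the G-protein-gated Kcnj9 in RSC cells. Kcnn1 was at 3.81, 2.08 and 1.31 CPM against 49.3, 27.6 and 15.4 CPM. The calls of Kcnt2 (without RSC replicate 1 or 2), Kcnk2 (without PFC replicate 3 or RSC replicate 2 or 3) and Kcnj9 (without RSC replicate 1) were lost, with adjusted p up to 0.0668, 0.115 and 0.0688. On FPKM with limma, Kcnt2 and Kcnf1 were not called (adjusted p = 0.0519 and 0.118).

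Among 26 sodium and related channel genes, 4 were higher in PFC (Scn2a, Scn3a, Scn3b and Fgf13) and 5 in RSC cells (Scn1a, Scn4b, Fgf11 and Trpc5 among them), with a median of -0.23. The PFC count was 1 without RSC replicate 1 and 2 without RSC replicate 2 or 3 or PFC replicate 3. The beta subunit Scn4b, linked to resurgent sodium current, was at 7.8, 4.16 and 13.4 CPM against 168, 144 and 68.3 CPM, a log2 fold change of -3.91 ± 0.56 (SE; adjusted p = 0.000296). A pair of intracellular fibroblast growth factors that bind sodium channels split: Fgf11 was at 63.9, 48.3 and 17.6 CPM against 430.3, 643 and 414 CPM, and Fgf13 at 73.4, 82.1 and 119 CPM against 28.4, 38.8 and 32.4 CPM. None of these 3 genes overlaps between the populations, and Fgf13 alone of them is the higher in PFC cells.

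Of 22 calcium channel genes, 5 were higher in PFC (Cacna2d1, Cacna1e, Cacna1d, Cacnb2 and Stim2) and Cacnb4 in RSC cells, with a median of 0.51. The count on the RSC side was 0 without PFC replicate 2 or 3 or RSC replicate 2 or 3, and 2 without NA replicate 2. Cacna2d1, the alpha-2-delta-1 subunit that carries channels to the terminal, was at 493, 688 and 748 CPM against 73.5, 77 and 115 CPM, a log2 fold change of 2.86 ± 0.25 (SE; adjusted p = 1.7e-05). Cacna1e, the R-type pore, was at 1362, 1711 and 1599 CPM against 509.5, 303 and 426 CPM. For both genes the lowest PFC library lies above the highest RSC library.

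Of 37 genes for binding calcium or signalling through it, 11 were higher in PFC (such as Calb1, Hpcal4, Necab1, Necab3, Ppp3ca, Ppp3r1, Camk2a and Camk2b) and 6 in RSC cells (Vsnl1, Camk2g, Camk4, Pvalb, Ncald and Cabp7), with a median of 0.09. On the PFC side 5 were called without RSC replicate 2 and 7 without RSC replicate 1 or PFC replicate 2 or 3, and on the RSC side 2 without PFC replicate 2 and 3 without any one RSC library. The buffer calbindin (Calb1) was at 166, 352 and 141 CPM in PFC libraries and 0, 0 and 2.66 CPM in RSC libraries. RSC replicate 3 alone held Calb1 among the RSC libraries, and the fitted log2 fold change went from 7.89 ± 1.45 (SE; adjusted p = 0.00234) to 14.72 without it. Camk2g was the reverse of its relatives, at 52.8, 45.5 and 90.4 CPM against 389.8, 342 and 362 CPM. Pvalb, a marker of interneurons, was at 0, 0 and 0.0938 CPM against 5.25, 7.06 and 8.79 CPM, and its call was lost without PFC replicate 1 or 2 or RSC replicate 2 or 3 (adjusted p up to 0.0847).

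The release machinery was divided evenly, with 10 of 48 genes higher in each population and a median of 0.07; 5 were higher in PFC cells without RSC replicate 2. Complexins, which clamp and promote vesicle fusion, switched paralogue: Cplx2 was at 807, 790.1 and 443 CPM in PFC and 50, 98.5 and 88.2 CPM in RSC libraries, and Cplx1 at 267, 205 and 218 CPM in PFC and 795, 777 and 752 CPM in RSC libraries. The log2 fold changes were 3.11 ± 0.39 (SE; adjusted p = 0.000107) for Cplx2 and -1.75 ± 0.23 (SE; adjusted p = 0.000152) for Cplx1. Both populations held both complexins, and neither gene overlaps between them. Synaptotagmins were divided as well, with Syt3 and Syt17 higher in PFC and Syt2, Syt4 and Syt11 in RSC cells. So were the synaptobrevins, Vamp2 in PFC and Vamp1 in RSC cells. Synaptophysin (Syp), a vesicle membrane protein, was at 1802, 1651 and 1378 CPM against 701, 554 and 419 CPM, while Sv2b, Sv2c and Snap25 were higher in RSC cells.

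Cell-surface genes differed widely. Of 29 cadherins and protocadherins, which bind cells to like cells, 17 were called (58.6%), 11 higher in PFC and 6 in RSC cells, with a median of 0.94. Cdh2, Cdh4, Cdh11, Cdh12, Pcdh1, Pcdh7, Pcdh8, Pcdh20, Fat4, Celsr2 and Celsr3 were on the PFC side and Cdh6, Cdh7, Cdh10, Cdh20, Cdh22 and Fat3 on the RSC side. Cdh11 was at 171, 209.7 and 246 CPM against 33.5, 60.3 and 59.9 CPM, and Cdh6 at 3.73, 9.98 and 11.6 CPM against 81.2, 106 and 56.1 CPM. Leaving out 1 library at a time gave 7 (without RSC replicate 3) to 11 cadherins higher in PFC and 5 to 7 higher in RSC cells.

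Of 69 synaptic adhesion genes and organizers, 15 were higher in PFC and 11 in RSC cells, with a median of 0.28. Elfn1, a postsynaptic protein that recruits presynaptic glutamate receptors in trans, was at 24.8, 5.82 and 7.31 CPM in PFC and 513, 408 and 407 CPM in RSC libraries. Its log2 fold change was -5.13 ± 0.46 (SE; adjusted p = 1.7e-05), or -6.08 without PFC replicate 1, while its paralogue Elfn2 was higher in PFC cells. The netrin-G proteins split likewise, Ntng2 in PFC and Ntng1 in RSC cells. The receptor phosphatase Ptprt was at 386, 186 and 331 CPM against 1253, 1229.7 and 1526 CPM, and the adhesion molecule Cadm1 at 226, 246 and 269.8 CPM against 82.8, 67.3 and 64.9 CPM.

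Among 57 axon guidance genes, 10 were higher in PFC and 4 in RSC cells, with a median of 0.28. The repellent Slit1 was at 103, 114 and 109 CPM in PFC and 8.31, 5.35 and 15.6 CPM in RSC libraries, and Slit2 and the receptors Robo1, Robo2, Dcc, Neo1, Plxna1, Plxna2 and Plxnc1 and the ligand Sema3a were on the same side. The netrin receptor Unc5c, which mediates repulsion, was the reverse at 26.9, 65.8 and 30.8 CPM against 407, 385 and 441 CPM. With Unc5c went Dscam, at 65.6, 64.6 and 42 CPM against 254, 284 and 316 CPM, the semaphorin co-receptor Nrp1, at 81.1, 78.3 and 124 CPM against 258, 301 and 296 CPM, and Plxna4. Dcc and Unc5c, both netrin receptors, thus lay on opposite sides.

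Matrix genes numbered 11 higher in PFC and 4 in RSC cells of 32 tested, with a median of 0.59; the PFC count was 5 without RSC replicate 2 and 7 without RSC replicate 3. Sparcl1 (hevin), a secreted synaptogenic protein, was at 377, 246 and 419.6 CPM against 1707, 2019.9 and 1706 CPM, and Fn1, Thbs1 and Ncan were on its side. Nell2 was at 586, 622 and 678 CPM against 159, 189 and 113 CPM. The collagens of the list that were called, Col4a2, Col5a2, Col6a1 and Col25a1, were all higher in PFC cells.

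**Figure D3:**
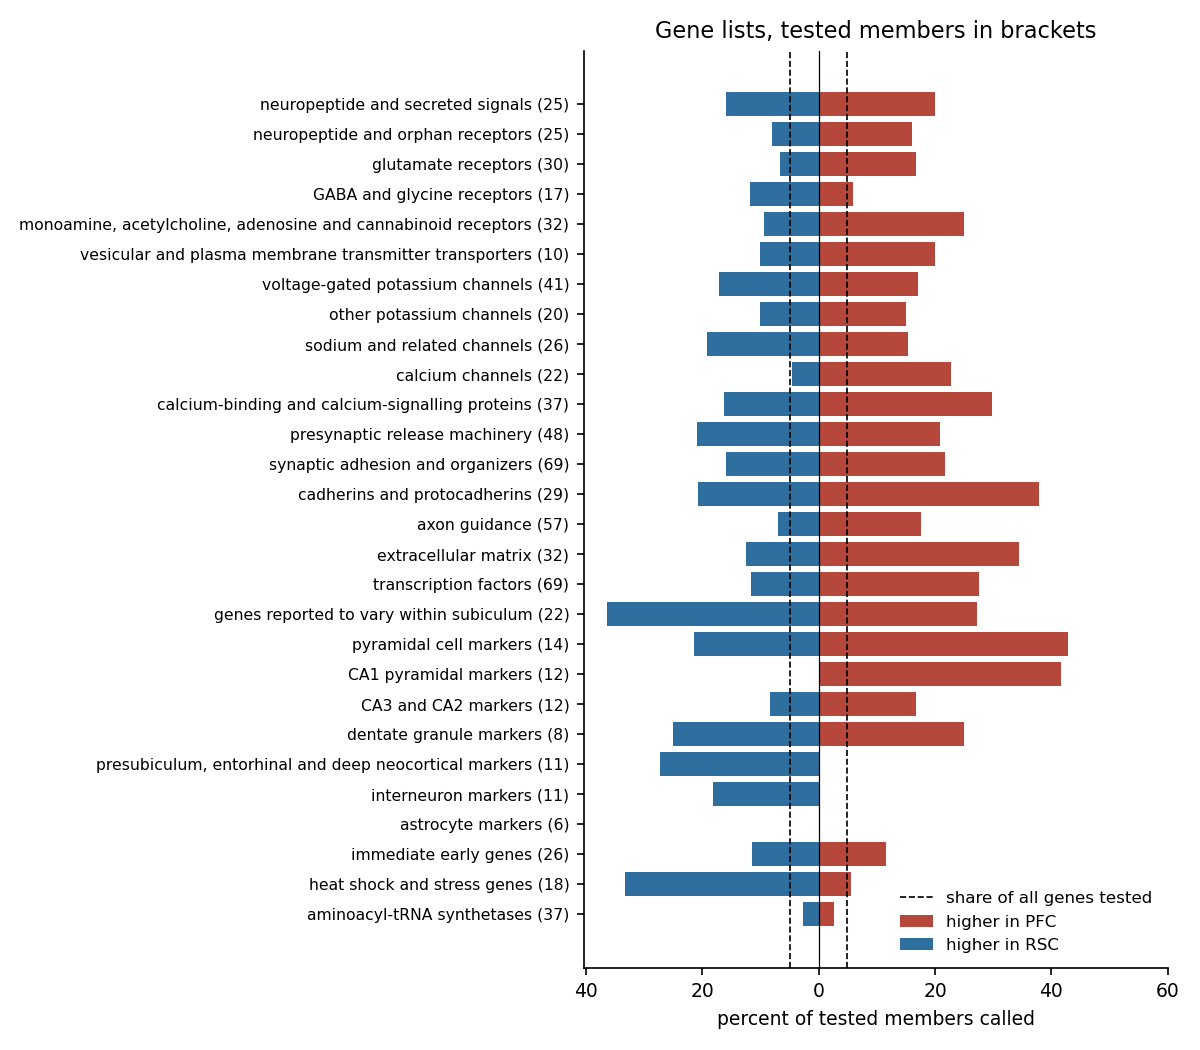
Percent of the tested members of each gene list (number tested in brackets) called higher in PFC (red, right) or higher in RSC cells (blue, left) at an adjusted p under 0.05, for lists with at least 5 tested members. Dashed lines mark the 4.88% of all tested genes called in each direction. Cadherins exceed it on both sides, with 11 and 6 of 29, and so do other lists such as release machinery, with 10 and 10 of 48. CA1 markers exceed it on the right only, with 5 and 0 of 12.

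Transcription factors were called in 27 of 69 cases, 19 higher in PFC (12 without RSC replicate 1) and 8 in RSC cells, with a median of 0.13. The ETS factor Etv1 was at 772, 562 and 1101 CPM in PFC and 3118, 3072 and 3052 CPM in RSC libraries, a log2 fold change of -1.92 ± 0.18 (SE; adjusted p = 1.7e-05), and its relative Etv5 was also higher in RSC cells. The repressor Bcl6 was at 76.3, 16 and 79 CPM against 637, 752 and 722 CPM, and the orphan nuclear receptor Nr4a2 at 349.8, 277 and 266 CPM against 810.0, 951 and 758 CPM, with Satb1, Tshz2, Tshz3 and Ldb2 beside them. For Etv1, Bcl6 and Nr4a2 the groups are apart, and the PFC libraries are the lower.

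Helix-loop-helix factors of the neuronal differentiation class were all on the PFC side where called (Neurod1, Neurod6 and Bhlhe22), and so were Tbr1, Lhx2, Lmo4, Meis2, Nfia, Zbtb18 and Zeb2 and the MADS factors Mef2a, Mef2c and Mef2d. Neurod6 was at 278, 363 and 542 CPM against 59.9, 124 and 104 CPM, and the LIM protein Lmo4 at 229, 246 and 242 CPM against 60.4, 60 and 72.7 CPM. Zbtb20, a zinc-finger factor of CA1 development, was at 49, 551 and 609 CPM against 5.31, 6.01 and 10 CPM, with PFC replicate 1 far below the other PFC libraries but above every RSC library.

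Of 22 genes known to vary within the subiculum, 14 were called. Calb1, Ntng2, Col5a2, Dlk1, Ly6g6e and Rprm were higher in PFC cells, and Nts, Slc17a6, Fn1, Lxn, Scn4b, Gpr101, Whrn and Sv2c in RSC cells. This list was assembled with earlier results of these libraries known, so its counts are no independent evidence. Lxn, a carboxypeptidase inhibitor, was at 105, 51.6 and 83.6 CPM against 318, 428 and 378 CPM. With RSC replicate 1 as the sole RSC library, 8 of the list were called on the RSC side and 2 on the PFC side.

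Genes that mark neighbouring fields differed too. Of 12 tested CA1 markers, 5 were higher in PFC cells (Zbtb20, Wfs1, Man1a, Ccn3 and Dcn) and 0 in RSC cells, where DESeq2 gave 1 and 7 were higher in PFC by that tool. The list median was 1.76, and the summed level was 2681 to 3797 CPM in PFC and 1809 to 2000 CPM in RSC libraries. Man1a, a mannosidase, was at 407, 769 and 463 CPM against 93.5, 100.4 and 119 CPM, and Wfs1, an endoplasmic reticulum protein, at 135, 359 and 203 CPM against 38.3, 74.2 and 27.1 CPM. In reverse, 3 of 11 markers of presubiculum, entorhinal cortex and deep neocortical layers (Rxfp1, Nr4a2 and Tshz2) were higher in RSC cells, with a median of -1.50 and summed levels of 613 to 976 CPM in PFC against 1974 to 2173 CPM in RSC libraries. Markers of CA3 and CA2 (2 higher in PFC, 1 in RSC, of 12) and of dentate granule cells (2 and 2 of 8) were called in both directions. Of the granule cell list, Prox1, C1ql2 and Dsp were at 0 in all 6 libraries. Whether cells of a neighbouring field contributed was not tested.

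Lars2, the mitochondrial leucyl-tRNA synthetase, was the most counted gene among those higher in PFC cells, at 9327, 6987 and 12300.1 CPM against 1419, 884 and 935 CPM, a log2 fold change of 3.14 ± 0.31 (SE; adjusted p = 1.79e-05). It was not particular to PFC cells, at 13236, 17269 and 11558 CPM in NA and 2720, 2103 and 951 CPM in VHN libraries. In the unlabelled single cells its mean was only 92.9 CPM, below Arf3 at 403 and Gpm6a at 327 CPM. The reason for this low level was not tested. Of 37 aminoacyl-tRNA synthetase genes tested, Lars2 was called higher in PFC and Nars in RSC cells, which is 5.41% beside 9.76% of all genes tested, and the median was -0.21. The counts were 2 and 4 without NA replicate 2. Nars lost its call without PFC replicate 1 or 2 or RSC replicate 1 or 2 (adjusted p up to 0.117). Other highly counted genes on the PFC side were the small GTPase Arf3, at 2141, 2734 and 2060.3 CPM against 766, 845 and 726 CPM, and the membrane glycoprotein Gpm6a, at 1656, 2066 and 1959.8 CPM against 686, 731 and 944 CPM.

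Genes with many fragments on the RSC side included the calcium sensor Vsnl1, at 2141, 2159.8 and 1862 CPM against 5993, 5868 and 4804 CPM, Ndrg4, at 1913, 1952 and 1647 CPM against 4296, 4236 and 4329 CPM, and the microtubule protein Map1a, at 1022, 1269 and 899 CPM against 2682, 3104 and 2888 CPM. Their log2 fold changes were -1.44, -1.22 and -1.44, and the libraries lie close together inside each group.

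Of 18 tested heat shock and stress genes, 6 were higher in RSC (Hsp90aa1, Hsp90ab1, Hsph1, Dnaja1, Dnajb1 and Atf4) and Hmox1 in PFC cells, with a median of -0.68. The call on the PFC side was lost without PFC replicate 2 or 3 or any one RSC library. The summed level of the list was 4517 to 4882 CPM in PFC and 7020 to 7813 CPM in RSC libraries. The co-chaperone Dnaja1 was at 397, 325 and 368 CPM against 768, 946 and 837 CPM. Leaving out 1 library at a time gave 3 (without RSC replicate 2) to 7 genes of the list on the RSC side, and Hsph1 lost its call without RSC replicate 2 (adjusted p = 0.0750). Of 26 immediate early genes, Arc, Bdnf and Nr4a3 were higher in PFC, and Fosl2, Ier5 and Nr4a2 in RSC cells, with a median of 0.80 and 5 on the PFC side without NA replicate 2. Their summed level went the other way from the median, at 1679 to 1925 CPM in PFC and 2029 to 2392 CPM in RSC libraries. Ier5 was at 37.1, 44.5 and 47 CPM against 226, 158 and 211 CPM. These genes respond to activity and to tissue handling, and whether handling differed between the groups was not tested.

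The NA and VHN libraries place this separation beside other projection classes. The PFC minus RSC and the NA minus VHN differences share no library. Of the 1358 genes called between PFC and RSC, 257 were also called between NA and VHN in the same direction, which is 18.9% of the PFC and RSC calls and 67.1% of the 383 (2.75%) NA and VHN calls, and 1 was called in the opposite direction. The sign was the same for 1188 of the 1358 (87.5%), and the difference was smaller in size between NA and VHN for 1256 (92.5%), with medians of 1.66 and 0.84 on the log2 scale. The calls were chosen for their size between PFC and RSC, which by itself makes the other difference smaller on average.

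A test of the difference between these differences called 23 genes (0.165%), 2 of them (0.0144%) more positive and 21 (0.151%) more negative between PFC and RSC than between NA and VHN. In 20 of the 21, PFC cells had the lowest mean of the 4 populations, and in 18 every PFC library lay below the other 9. The test chose these genes for PFC and VHN being low against RSC and NA, which favours a low PFC mean. Both counts come from the values that chose the genes and are a description only. Etv1 was at 2797, 2459 and 2618 CPM in the NA and 2550.2, 2466 and 2124 CPM in the VHN libraries; all 9 libraries outside PFC lie above every PFC library. The difference between the differences was -2.07 ± 0.25 (SE; adjusted p = 0.00389) for Etv1 and -1.61 ± 0.21 (SE; adjusted p = 0.0046) for Map1a. Map1b, a relative of Map1a, gave -0.85 ± 0.12 (SE; adjusted p = 0.00679), and its call was lost without RSC replicate 2 (adjusted p = 0.069). Other genes of the 21 were Vsnl1, Dkk3, the adhesion proteins Ntm and Adgra1, the chaperone Hspa4, the cholesterol enzyme Cyp51 and the kinase Pak1.

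Both genes in the positive direction, where the choice favours a high PFC mean, had every PFC library above the other 9. Htr2c was at 119.9, 35.9 and 87.6 CPM in the NA and 5.36, 29.2 and 27.7 CPM in the VHN libraries, and the difference between the differences was 4.40 ± 0.76 (SE; adjusted p = 0.0402). Cpne6, a calcium-dependent phospholipid-binding protein, was at 583, 647 and 541 CPM in PFC, 230.4, 165 and 177 in RSC, 249, 165 and 235 in NA and 269.5, 211 and 197 in VHN libraries, with a difference of 1.69 ± 0.30 (SE; adjusted p = 0.0402). Those 2 calls were less firm than that of Etv1: adjusted p reached 0.141 for each when 1 library was left out, and passed 0.05 for Htr2c without PFC replicate 2 or 3, any RSC library or VHN replicate 2 or 3, and for Cpne6 without PFC replicate 2 or any RSC or VHN library, while Etv1 and Map1a stayed under 0.05 in all 12 such fits. The number of genes called ran from 2 to 51, at 10 without PFC replicate 2, 3, 2 and 7 without RSC replicate 1, 2 and 3, 10, 13 and 51 without NA replicate 1, 2 and 3, and 3 without VHN replicate 2 or 3. It was 0 without RSC replicates 2 and 3 and VHN replicate 3, and 11 or 5 with median-ratio scaling or none.

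**Figure D4:**
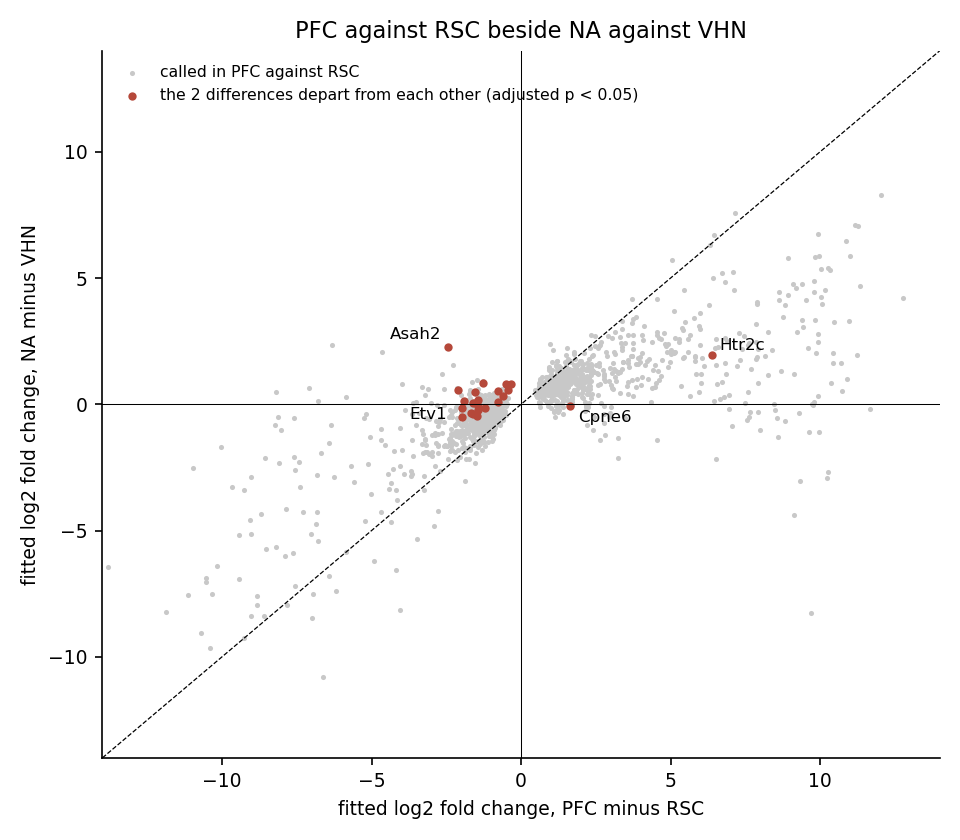
Fitted log2 fold change between NA and VHN (vertical axis) against that between PFC and RSC (horizontal axis) for genes called between PFC and RSC (grey) and for the 23 genes whose 2 differences depart from each other (red). The dashed line marks equal differences; most grey points lie between it and the horizontal axis, and Htr2c and Cpne6 are the red points on the positive side.

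In the same fit, PFC against NA gave 61 called genes (0.438%), 5 higher (0.0359%) and 56 lower (0.402%) in PFC cells. This comparison uses the same PFC libraries as the one above, so its values are set side by side only. Pcdh20 was at 106, 187 and 125 CPM in NA and 0.368, 23.6 and 33.7 CPM in VHN libraries, and Nts at 25.4, 20.3 and 18.2 CPM in NA and 406, 273 and 199 CPM in VHN libraries. Fn1 was at 0.0621, 1.82 and 14.4 CPM in NA and 615, 575 and 285 CPM in VHN libraries. Other genes high in RSC cells were high in VHN libraries too. Syt2 was at 2.8, 3.97 and 6.31 CPM in NA and 356, 223 and 120 CPM in VHN libraries. Rxfp1 was at 1.55, 0.322 and 6.36 CPM against 177, 141 and 115 CPM, and Igfbp5 at 3.29, 4.29 and 0.156 CPM against 471, 412 and 203 CPM. These genes are thus not particular to RSC cells.

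The single cells carry no projection label and were read as 1 pooled sample. Of 384 wells, 348 passed a minimum of 1000 genes with a count, and these held 112401 counts in the median. Of the genes named by size, level or list, 103 differed by 1 log2 unit or more in either direction. All but Fn1 and Igfbp5 were found, which is 101. Of these, 65 were detected in at least 20% of the cells, 27 higher in PFC and 38 higher in RSC cells. The median Spearman correlation over cells was 0.171 for 351 pairs of genes both higher in PFC and 0.282 for 703 pairs both higher in RSC cells. It was -0.091 for 1026 pairs with 1 gene from each side and 0.030 over all pairs of 7998 genes detected as widely. With a minimum of 3000 genes, which 333 cells passed, these medians were 0.145, 0.254, -0.129 and, over 8094 genes, 0.014. The cells share depth and plate, which can tie genes together, and the figures are a description of 1 sample.

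The classes of pairs overlapped widely: 24.7% of the pairs across sides were above 0, up to 0.30, and 89.2% of the pairs both higher in PFC cells were above 0, down to -0.28 for the others. The pairs named next lie toward the ends of their classes. Rxfp1 and Syt2 gave a rho of 0.74, Nts and Rxfp1 0.68, and Etv1 and Nts 0.62 (348 cells). Calb1 and Cplx2, both higher in PFC cells, gave 0.52, and across sides Cplx2 and Syt2 gave -0.54 and Calb1 and Nts -0.42. Lars2 gave values from -0.14 to 0.13 against the genes examined on either side.

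**Figure D5:**
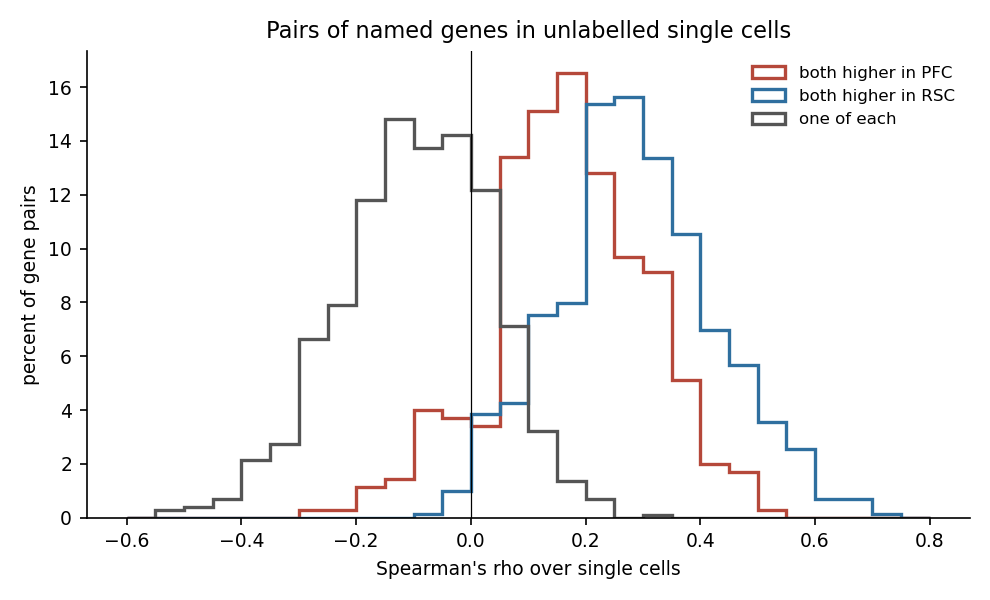
Distribution over gene pairs of Spearman's rho across 348 single cells (horizontal axis; vertical axis, percent of pairs) for 351 pairs both higher in PFC (red), 703 both higher in RSC (blue) and 1026 with 1 of each (grey). The medians are 0.171, 0.282 and -0.091.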

How the data were processed

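Expected counts (raw fragments per gene and library) and FPKM come from a table the authors deposited, with values per condition and replicate per the file headers; single-cell counts come from the authors' deposited table. The genome build was mm9, per the submitters' processing notes; the aligner, the counter and the use of strand are not given in the sources used here, so genes with overlapping or antisense partners, and multi-copy genes, are uncertain. Of 37607 gene rows, 87.5% matched a symbol by Ensembl ID. Expected counts were rounded (8.51% were not whole), rows of 92 spike-ins with 0 fragments were left out, and none of the 113 named genes had a failed entry.

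Genes kept by filterByExpr (minimum count 10) were fitted with edgeR 4.0.16 (glmQLFit, TMM scaling, R 4.3.3) over the 12 bulk libraries with 1 coefficient per population (8 residual degrees of freedom), and p-values were adjusted by Benjamini-Hochberg over all 13916 genes at a threshold of 0.05. The procedure was tested on simulated data. Alternatives used DESeq2 1.42.0, limma 3.58.1 on log2(FPKM + 1), other scalings, filters and left-out libraries. The SE given with a log2 fold change is its absolute value divided by the square root of the test's F statistic. It is not a standard error taken from the fit, and gives no interval for genes almost absent from a population. CPM levels use TMM library sizes. The library numbers follow the table's own replicate numbers in order.

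Named genes were, in each direction, the 12 largest changes among non-overlapping called genes with a mean of at least 10 CPM in the higher population, the 5 most counted called genes with a log2 fold change of at least 1 in size, and the 3 with the lowest adjusted p against the NA and VHN difference; and up to 4 called members with the lowest adjusted p from each of 32 gene lists. Other list members are named because they were called. The members and lists were chosen with earlier results of these data known. Counting intervals and floors (3 fragments over a group) cover counting error only. Single cells with at least 1000 genes, or 3000 as an alternative, were compared by Spearman correlation of CPM (scipy 1.17.1), with doublets not removed. Promoter windows come from RefSeq on GRCm38.p6; since the table is on mm9, no other coordinates are given. A few named genes are not reported here.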

Additional observations from a re-analysis of the deposited data

How the results depend on the processing

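Of the 113 named genes, 62 kept their call in every alternative in which they could be fitted, and 19 lost it when some 1 library was left out. The 1358 calls became 2128 with DESeq2 (1109 higher in PFC, 1019 in RSC), 1344 of them shared, and 214 (96 and 118) without RSC replicates 2 and 3 and VHN replicate 3. Leaving out 1 library at a time gave 744 to 1833 calls, 359 to 885 higher in PFC and 385 to 948 in RSC cells. Other scalings, no filter on low counts, the 6 PFC and RSC libraries alone, and FPKM with limma gave 1218 to 1727. The 23 genes whose difference departs from that between NA and VHN became 11 with median-ratio scaling, 5 with no scaling, 370 without a filter, 264 with DESeq2, 0 without RSC replicates 2 and 3 and VHN replicate 3 (1580 genes had an unadjusted p under 0.05 with all libraries), 49 without PFC replicate 3 and NA replicate 2, and 2 to 51 with 1 library left out. Apart from fewer libraries or another filter, the cause was not tested. Stricter limits left 2 of 16 and 4 of 9 near-absent genes. Same-numbered libraries did not deviate together (correlations from -0.059 to 0.027), so the numbers were not taken as pairs; a replicate block gave 1245 calls (625 and 620) and 21 departing genes, and C1qtnf7 was not called (adjusted p = 0.0542). No scaling moved the median log2 fold change by more than 0.05. With 3 libraries a group, a common biological coefficient of variation of 0.736 limits which differences can be called, most of all for genes with few fragments.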
